A study of Mus musculus with 6 samples.

Results

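The thioredoxin, glutaredoxin and sulfiredoxin system was followed through its 10 core genes, which were listed by name and role, with earlier results of these data known. The list holds the thioredoxins Txn1 and Txn2, the thioredoxin reductases Txnrd1, Txnrd2 and Txnrd3, the thioredoxin-interacting protein gene Txnip, the sulfiredoxin gene Srxn1, the glutaredoxins Glrx and Glrx2, and the nucleoredoxin gene Nxn. Each of the 10 had 1 row among the 35275 Ensembl gene identifiers of the table, and all 10 passed the filter on low values. The cells were ID8-KMF, a C57Bl6/J mouse ovarian cancer line derived from ID8 cells by passage in mice. The gene for Rgnef (symbol Arhgef28) was knocked out in both kinds of cell compared here. In 3 libraries, called knockout here, the genotype was Rgnef-/- alone. The other 3, called GFP-Rgnef, came from Rgnef-/- cells that re-expressed Rgnef with a GFP tag from a lentivirus. Both kinds of cell grew subconfluent on dishes coated with dilute Matrigel. Whether each kind was a single clone, and whether its 3 libraries are from separate cultures, was not given in the sources used here. The p-values therefore rest on the spread among 3 libraries a group, and that spread may be technical only. Lentivirus and GFP came together with Rgnef and cannot be told apart from it.

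Thioredoxins are small proteins that pass electrons from NADPH to oxidised cysteines in other proteins, and thioredoxin reductases, which contain selenocysteine, recharge them. The peroxiredoxins that remove hydrogen peroxide depend on this flow, and sulfiredoxin repairs those that have been overoxidised. Glutaredoxins do related work with electrons from glutathione. Txnip binds reduced thioredoxin and blocks it, and several genes of the system, Txnrd1 and Srxn1 among them, are textbook targets of NRF2, a transcription factor that oxidants and electrophiles activate.

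Levels are deposited FPKM values (fragments scaled to transcript length and library depth), and differences are knockout minus GFP-Rgnef in log2(FPKM + 1), where changes of low genes come out too small. Depth, as worked out from the low values, ran between 15898965 and 17977069 reads a library. Rgnef RNA matched the labels: Arhgef28 stood at 0.110 to 0.134 FPKM in the knockout libraries, against 50.02 to 57.24 FPKM in the GFP-Rgnef libraries. Of 9 markers of mesothelium and ovarian surface epithelium 7 reached 1 FPKM in every library, while Krt7 stayed at or below 0.307 FPKM and Lrrn4 at or below 0.186 FPKM. Of the 7 tested, Krt18 was called lower, with 224.4 ± 9.21 FPKM in knockout and 319.8 ± 29.8 FPKM in GFP-Rgnef libraries (SD, n = 3 each; difference -0.51, limma adjusted p = 0.00625). The largest difference was that of Upk3b, at 1.43, which overlapped and was not called (limma adjusted p = 0.0878). The sum of these markers was 1661 to 2644 FPKM in knockout libraries and 1748 to 2604 FPKM in GFP-Rgnef libraries. Leukocyte markers summed to 4.55 to 6.33 FPKM in knockout libraries and 4.86 to 5.96 FPKM in GFP-Rgnef libraries, with Adgre1 at 0 throughout and Ptprc at 0 in all but 1 library. Cd68 and Cd14 made most of these sums. Cd68 ranged from 2.165 to 3.806 FPKM and Cd14 from 1.84 to 3.646 FPKM over both groups, and neither was called. Of 4 endothelial markers Kdr was at 0 and Pecam1 at most at 0.217 FPKM, but Tek stood at 85.7 to 146 FPKM in knockout libraries and 95.6 to 108 FPKM in GFP-Rgnef libraries. Of the 4 tested fibroblast markers Dcn was called lower (difference -0.83, limma adjusted p = 0.0426). The other 3, Col1a1, Pdgfra and Col1a2, had positive differences of 1.2, 0.49 and 0.44 that were not called (limma adjusted p of 0.051, 0.114 and 0.759). The 6 fibroblast markers, mostly Dcn, summed to 39.6 to 44.4 FPKM in knockout libraries and 49.5 to 71.2 FPKM in GFP-Rgnef libraries, and the part of this in the results was not tested.

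In the knockout libraries 3 of the 10 members were called lower and 0 higher (limma), while 8 differences were negative and 2 positive. Srxn1 fell to 61.7% of its GFP-Rgnef level, Txnip to 58.8% and Txnrd1 to 79.2%. Among the 11500 genes tested with limma across the whole table, 13.4% were called at an adjusted p below 0.05, 5.34% as lower and 8.04% as higher. The system thus had 3 of 10 members called lower and 0 called higher (limma), with a median difference of -0.22 against -0.02 over all tested genes. At an unadjusted limma p below 0.05, Txn2 and Txnrd2 were lower and Txnrd3 and Nxn higher in addition. The share of all tested genes at that looser limit was not counted. A gene at an unadjusted limma p of 0.05, Ino80e, had a limma adjusted p of 0.176. These additions are therefore not read as a result about the system. The 3 calls were not equally firm: only Srxn1 was still called without knockout 1, without knockout 2 and without GFP-Rgnef 2, which left 1 member called each time. A lower level in knockout libraries may come from fewer cells that express a gene or from less RNA per cell, and bulk RNA cannot tell these apart. The 10 genes lie on 10 different chromosomes, and 0 of them on chromosomes 7 and 9, whose tested genes had median differences of 0.24 and 0.28.

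**Figure D1:**
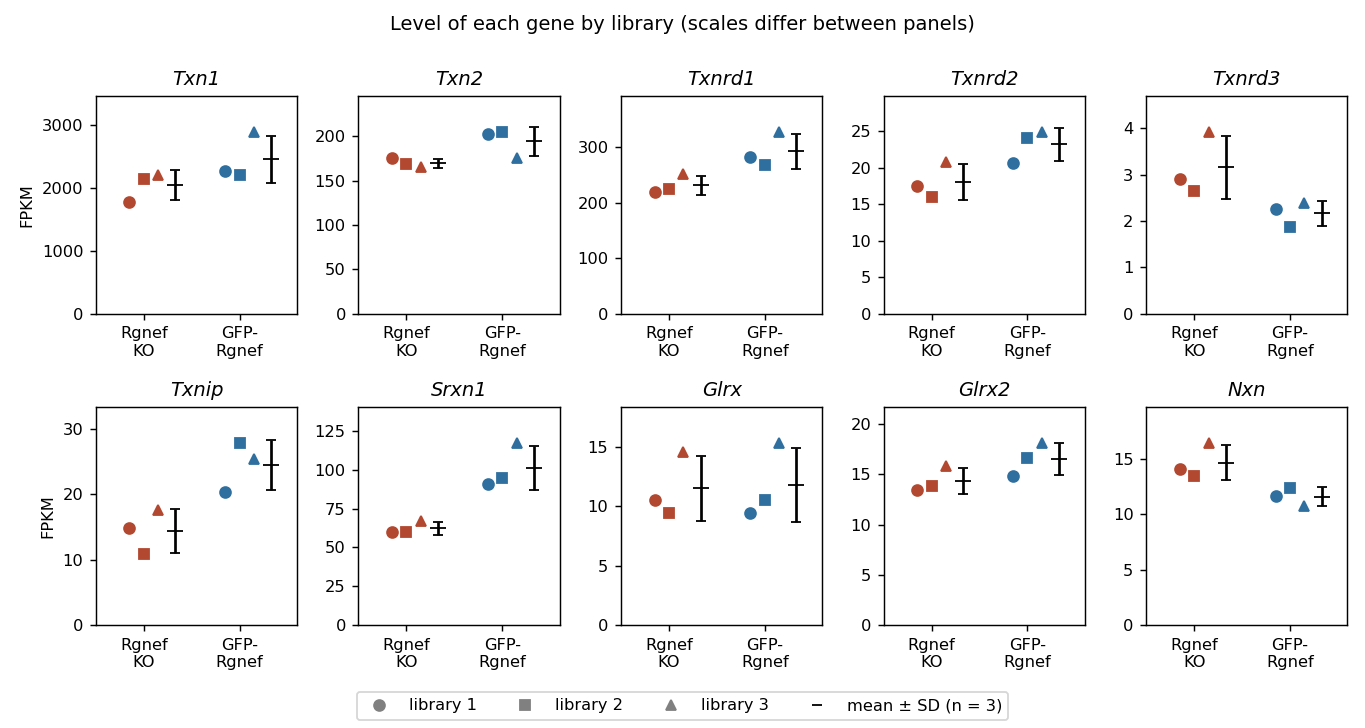
FPKM of the 10 genes in each library, with knockout (red) left of GFP-Rgnef (blue) in every panel, 1 symbol per library number, and black bars for the mean ± SD of 3 libraries. Every knockout library lies below every GFP-Rgnef library for Txnrd1, Txnip and Srxn1 and above every one for Txnrd3 and Nxn, and the groups overlap for the other 5 genes.

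The sulfiredoxin gene Srxn1 (ENSMUSG00000032802, GRCm38 chromosome 2, 152105516 to 152111376, plus strand, protein coding) was the member with the smallest p. It had 59.99, 59.63 and 66.97 FPKM in knockout libraries 1 to 3, against 90.8, 94.8 and 117.1 FPKM in GFP-Rgnef libraries 1 to 3. The groups did not overlap. The gap between them was wider than the range within the knockout group but narrower than the range within the GFP-Rgnef group. The means were 62.2 ± 4.14 FPKM in knockout and 100.9 ± 14.2 FPKM in GFP-Rgnef libraries (SD, n = 3 each). The difference was -0.68 (SE 0.103, 95% interval -0.92 to -0.45, limma adjusted p = 0.00534), from 1257 to 2449 reads per library. Srxn1 was called with any 1 library left out, with limma adjusted p from 0.00692 to 0.0307.

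The thioredoxin reductase gene Txnrd1 makes the cytosolic enzyme, and it was the other called member that belongs to the textbook NRF2 targets. For Srxn1 and Txnrd1, both called lower, the 250 bases before a RefSeq start of each (build GRCm38.p6, plus strand) are shown. Capitals mark every match on either strand to TGANNNNGC, a loose core of the antioxidant response element that NRF2 binds. Starts were picked because their windows matched a stricter core, TGACNNNGC, so a window without a match could not appear. The Txnrd1 window at 82833701 to 82834000 held no match, that at 82860091 to 82860390 only the loose core, and neither is shown.
Srxn1 chr2:152105274-152105523: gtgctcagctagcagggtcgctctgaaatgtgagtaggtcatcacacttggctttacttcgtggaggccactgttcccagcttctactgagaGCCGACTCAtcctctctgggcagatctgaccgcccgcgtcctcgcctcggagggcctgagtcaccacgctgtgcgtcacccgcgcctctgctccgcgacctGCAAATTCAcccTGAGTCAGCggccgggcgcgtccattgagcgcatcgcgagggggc
Txnrd1 chr10:82858956-82859205: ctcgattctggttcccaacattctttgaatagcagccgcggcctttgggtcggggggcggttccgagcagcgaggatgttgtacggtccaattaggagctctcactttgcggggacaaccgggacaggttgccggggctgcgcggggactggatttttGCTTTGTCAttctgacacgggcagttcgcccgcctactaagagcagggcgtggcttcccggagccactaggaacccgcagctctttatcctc
The Srxn1 stretch holds 3 matches, the nearest to the start 45 to 37 bases before it on the strand of the gene. The Txnrd1 stretch holds 1, on the opposite strand 92 to 84 bases before the start, which also fits the stricter core TGACNNNGC.

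The stricter core, every match to which is also a match to the loose one, was found in windows of 300 bases (250 before and 50 after a start) in 2 of the 10 genes, Srxn1 and Txnrd1. In Srxn1 it lay 28 to 36 bases after the start, outside the stretch shown, and in Txnrd1 it lay at 1 of 3 starts. Of all 27025 genes with a window 14.0% had the stricter core and 45.0% the loose one, against 5 of 10 members for the loose one. A gene with more windows has more room for a match. Per window, the stricter core was in 12.5% of the 16 member windows and 12.4% of all 32851 windows. For the loose core these shares were 37.5% and 41.3%. Of the 18 other NRF2 targets with a window 6 had the stricter core and 12 the loose one. The E-box CACGTG, a palindrome, was in 1 of the 10 genes, Glrx2, and in 8.09% of all genes with a window. The window of Txnip, also called lower, held none of these motifs. That of Txnrd3, higher in every knockout library but not called, held the loose core. The loose core was added after the windows had been searched for the other motifs, and a match is letters in a window, not a measured site.

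Of the 3 reductases, Txnrd1 (ENSMUSG00000020250, chromosome 10, 82833951 to 82897712, plus strand) had 219.0, 223.9 and 250.9 FPKM in knockout libraries 1 to 3. In GFP-Rgnef libraries 1 to 3 it had 282.2, 267.0 and 327.0 FPKM. All knockout values lay below all GFP-Rgnef values, and library 3 was the highest of each group. Means were 231.2 ± 17.2 FPKM in knockout and 292.1 ± 31.2 FPKM in GFP-Rgnef libraries (SD, n = 3 each), a difference of -0.33 (SE 0.0903, 95% interval -0.54 to -0.13, limma adjusted p = 0.0462). This call was close to the threshold: it was lost with any 1 library left out except knockout 3, at limma adjusted p from 0.0662 to 0.152, and held without knockout 3 at 0.0342. It was also lost without a filter on low values, without limma's trend and after chromosome centring, at limma adjusted p of 0.103, 0.0784 and 0.0738.

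Txnrd2 (ENSMUSG00000075704, chromosome 16, 18426384 to 18479073, plus strand) makes the mitochondrial reductase. It had 17.5, 16.0 and 20.8 FPKM in knockout libraries 1 to 3, against 20.7, 24.1 and 24.9 FPKM in GFP-Rgnef libraries 1 to 3. Knockout 3 lay just above GFP-Rgnef 1, so the groups overlapped by that pair. The difference of -0.35 was as large as that of Txnrd1 but did not pass the test (SE 0.112, 95% interval -0.61 to -0.09, limma adjusted p = 0.0798). Without knockout 3, or with only the libraries numbered 1 and 2, it did (limma adjusted p of 0.0315 and 0.0217).

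Txnrd3 (ENSMUSG00000000811, chromosome 6, 89643988 to 89675529, plus strand), known in mouse for its expression in testis, makes a reductase with a glutaredoxin domain and was the lowest member. It had 2.90, 2.65 and 3.92 FPKM in knockout libraries 1 to 3, against 2.25, 1.86 and 2.39 FPKM in GFP-Rgnef libraries 1 to 3. Here every knockout library was the higher one, unlike for Txnrd1. The difference of 0.38 did not pass the test (SE 0.141, 95% interval 0.06 to 0.71, limma adjusted p = 0.115), with 79 to 175 reads per library behind the values. Of the summed FPKM of the 3 reductases, Txnrd1 made 91.0% to 92.3% in knockout and 91.1% to 92.5% in GFP-Rgnef libraries. The share of Txnrd3 was 1.09% to 1.42% in knockout and 0.636% to 0.737% in GFP-Rgnef libraries.

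Txn1 (ENSMUSG00000028367, chromosome 4, 57943373 to 57956411, minus strand), the cytosolic thioredoxin, was by far the most abundant member. It had 1766, 2142 and 2208 FPKM in knockout libraries 1 to 3, against 2262, 2203 and 2883 FPKM in GFP-Rgnef libraries 1 to 3. Knockout 1 was the lowest and GFP-Rgnef 3 the highest, while the other 4 libraries lay close together and overlapped. The means of 2039 ± 238 FPKM in knockout and 2449 ± 377 FPKM in GFP-Rgnef libraries (SD, n = 3 each) differed by -0.26 (SE 0.123, 95% interval -0.54 to 0.02, limma adjusted p = 0.209). At 33370 to 52350 reads per library counting error is small beside that spread. The difference was -0.16 without knockout 1 and -0.14 without GFP-Rgnef 3. Txn1 has an annotated processed pseudogene, Txn-ps1, listed at 0 in every library.

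Txn2 (ENSMUSG00000005354, chromosome 15, 77915047 to 77929006, minus strand), the mitochondrial thioredoxin, had 175.4, 168.6 and 165.4 FPKM in knockout libraries 1 to 3. In GFP-Rgnef libraries 1 to 3 it had 202.6, 204.9 and 175.0 FPKM. GFP-Rgnef 3 lay among the knockout values, and the difference of -0.19 did not pass the test (SE 0.0751, 95% interval -0.36 to -0.02, limma adjusted p = 0.141). Without GFP-Rgnef 3 it was -0.26 and called (limma adjusted p = 0.0333). Txn2 was 1 of 3 members for which library 3 was not the highest of its group in both groups.

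Txnip (ENSMUSG00000038393, chromosome 3, 96557957 to 96561883, plus strand), an alpha-arrestin that inhibits thioredoxin and also lowers glucose uptake, had the largest difference of the 10. It had 14.9, 10.8 and 17.5 FPKM in knockout libraries 1 to 3, against 20.3, 27.8 and 25.4 FPKM in GFP-Rgnef libraries 1 to 3. The groups did not overlap. Relative to the mean, the SD was 23.5% in knockout and 15.6% in GFP-Rgnef libraries, against 6.66% and 14.0% for Srxn1. Means were 14.4 ± 3.38 FPKM in knockout and 24.5 ± 3.83 FPKM in GFP-Rgnef libraries (SD, n = 3 each), a difference of -0.74 (SE 0.173, 95% interval -1.14 to -0.34, limma adjusted p = 0.0281). The call was lost without knockout 1, knockout 2, GFP-Rgnef 2 or GFP-Rgnef 3, with limma adjusted p from 0.064 to 0.102, and without a filter on low values (limma adjusted p = 0.0781). Reads per library numbered 265 to 622, and the antisense gene Gm15441, which overlaps 19.4% of its exon length, averaged 0.06 FPKM. Counting by strand is not stated, so reads of genes that overlap on opposite strands cannot be told apart.

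The glutaredoxin genes among the members, Glrx and Glrx2, showed no called difference. Glrx3, outside the member list, was called higher (limma adjusted p = 0.00921) but not after chromosome centring (limma adjusted p = 0.358). Glrx (ENSMUSG00000021591, chromosome 13, 75839868 to 75850154, plus strand), the cytosolic enzyme that removes glutathione from protein cysteines, had 10.6, 9.40 and 14.6 FPKM in knockout libraries 1 to 3. In GFP-Rgnef libraries 1 to 3 it had 9.44, 10.6 and 15.3 FPKM. Library 3 was the high one in both groups and the other 4 values lay together. The difference was -0.02 (SE 0.196, 95% interval -0.48 to 0.43, limma adjusted p = 0.956), an interval that holds changes of either sign. Without knockout 1, knockout 2 or GFP-Rgnef 3 it was positive.

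Glrx2 (ENSMUSG00000018196, chromosome 1, 143716338 to 143749676, plus strand), the mitochondrial glutaredoxin, had 13.4, 13.9 and 15.8 FPKM in knockout libraries 1 to 3. In GFP-Rgnef libraries 1 to 3 it had 14.9, 16.6 and 18.1 FPKM. Knockout 3 lay above GFP-Rgnef 1, so the groups overlapped. The difference was -0.19 (SE 0.0988, 95% interval -0.42 to 0.04, limma adjusted p = 0.254), and -0.12 without GFP-Rgnef 3.

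Nxn (ENSMUSG00000020844, chromosome 11, 76257198 to 76399140, minus strand) makes nucleoredoxin, a thioredoxin relative that binds Dishevelled proteins of the WNT pathway. It had 14.1, 13.4 and 16.4 FPKM in knockout libraries 1 to 3, against 11.7, 12.4 and 10.7 FPKM in GFP-Rgnef libraries 1 to 3. All knockout libraries lay above all GFP-Rgnef libraries, as for Txnrd3. The difference of 0.31 did not pass the test (SE 0.0984, 95% interval 0.08 to 0.54, limma adjusted p = 0.0759). Among all tested genes 33.4% had groups without overlap, 16.7% with the knockout libraries lower and 16.7% with them higher, and the system had 5 of 10, of which 3 were lower and 2 higher.

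**Figure D2:**
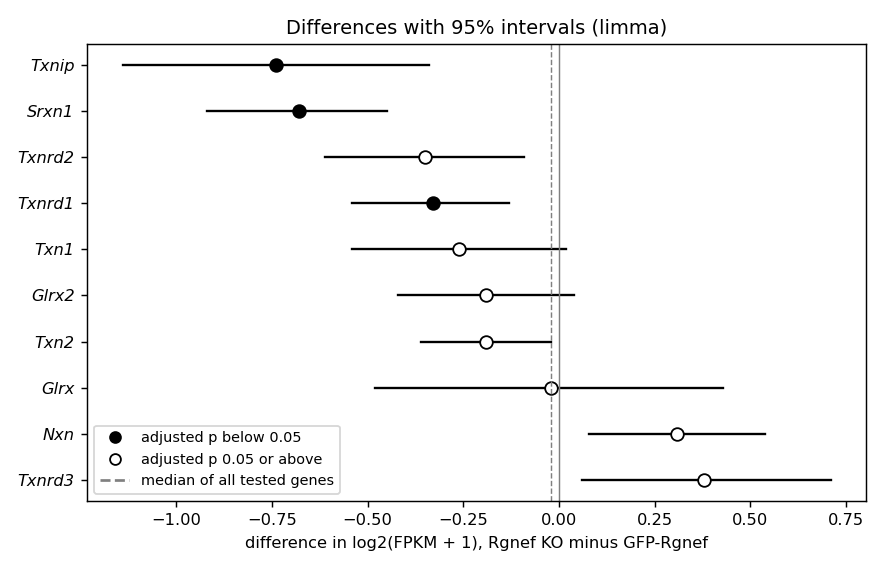
Differences in log2(FPKM + 1), knockout minus GFP-Rgnef, for the 10 genes (circles) with 95% intervals from limma (lines), filled where the adjusted p was below 0.05, and a dashed line at the median of all tested genes. Txnip, Srxn1 and Txnrd1 are the filled ones, the intervals of Txnrd2 and Txn2 also lie below 0, and those of Nxn and Txnrd3 lie above it.

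By FPKM, which is per length, the 4 most abundant members kept their order in all libraries. Txn1 made 77.0% to 80.5% of the summed FPKM of the 10 genes in knockout libraries and 76.9% to 80.1% in GFP-Rgnef libraries. Txnrd1 followed with 8.42% to 9.55% in knockout and 9.09% to 9.68% in GFP-Rgnef libraries, then Txn2 and Srxn1. The share of Srxn1 was 2.24% to 2.62% in knockout and 3.11% to 3.31% in GFP-Rgnef libraries, without overlap. Below these 4, Txnrd2 and Txnip were next by their mean over the 6 libraries. Glrx2, Nxn and Glrx lay so close together, from 9.40 to 18.1 FPKM, that their order changed between libraries. In knockout 2 Txnip, at 10.8 FPKM, lay below Glrx2 and Nxn. The sum of the 10 was 2294 to 2781 FPKM in knockout libraries and 2863 to 3599 FPKM in GFP-Rgnef libraries, which mostly reflects Txn1.

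Whether related members differed by unequal amounts was compared as 5 ratios within each library. Txnrd1 was 75.5, 84.4 and 64.0 times as abundant as Txnrd3 in knockout libraries 1 to 3, against 125, 143 and 137 times in GFP-Rgnef libraries 1 to 3. This is a difference of -0.86 in the log2 ratio, without overlap (exact two-sided permutation p = 0.1, adjusted over 5 ratios 0.25). With 3 libraries against 3 the exact permutation p cannot go below 0.1. The ratio of Txnip to Txn1 was also lower in every knockout library, with a log2 difference of -0.52 (exact permutation p = 0.1, adjusted 0.25), which was -0.29 without knockout 2 and -0.35 without GFP-Rgnef 2. Txn1 relative to Txn2, Txnrd1 relative to Txnrd2 and Glrx relative to Glrx2 overlapped between the groups, with log2 differences of -0.07, 0.03 and 0.17 (exact permutation p of 0.8, 0.8 and 0.5). The ratio of Txn1 to Txn2 was higher in knockout without knockout 1 or GFP-Rgnef 3 (0.05 and 0.13), and that of Txnrd1 to Txnrd2 lower without knockout 2 or GFP-Rgnef 2 (-0.03 and -0.06). That of Glrx to Glrx2 ranged from 0.06 without knockout 3 to 0.31 without GFP-Rgnef 3.

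Library 3 of each group stood apart from the other libraries over all genes, on the second principal component, which held 25.2% of the variance. For 7 of the 10 members it was the highest library of its group in both groups. Its excess over the mean of libraries 1 and 2 had a median over the members of 0.22 in knockout and 0.17 in GFP-Rgnef libraries on the log2 scale, against 0.02 and 0.01 over all tested genes. Glrx showed it most, at 0.51 in knockout and 0.57 in GFP-Rgnef. With only the libraries numbered 1 and 2, Srxn1, Txnip and Txnrd1 were called lower, and Txnrd2 and Txn2 besides, 5 of 10 in all (limma). Calls rose over the whole table too, to 1059 lower and 2337 in all of 11451 tested genes. With all 6 libraries these were 614 and 1539 of 11500.

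**Figure D3:**
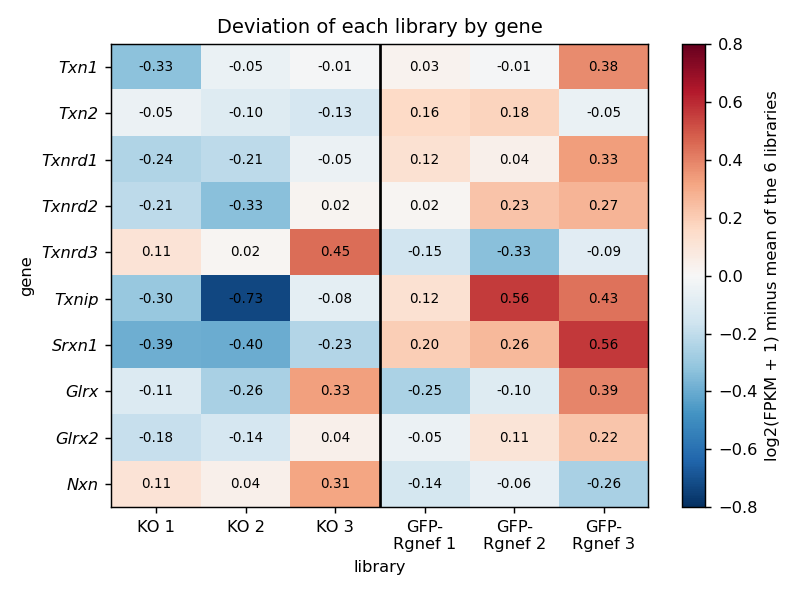
Deviation of each library (columns, knockout left of GFP-Rgnef) from the mean of the 6 libraries for each gene (rows), in log2(FPKM + 1), red above and blue below the mean. Srxn1 is below its mean in all 3 knockout libraries and above it in all 3 GFP-Rgnef libraries, while Glrx is above its mean only in the libraries numbered 3.

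The enzymes that thioredoxin and glutathione serve moved in both directions. Of 16 tested clients of the system and its glutathione counterpart 3 were called lower and 2 higher (limma), with a median difference of -0.06. Over all tested genes 5.34% were called lower and 8.04% higher. Gsr, glutathione reductase, fell to 218.1 ± 9.30 FPKM in knockout libraries, against 300.3 ± 22.7 FPKM in GFP-Rgnef libraries (SD, n = 3 each; difference -0.46, limma adjusted p = 0.00609). Msrb3, a methionine sulfoxide reductase, rose to 21.2 ± 3.19 FPKM in knockout libraries, against 5.91 ± 0.151 FPKM in GFP-Rgnef libraries (SD, n = 3 each; difference 1.67, limma adjusted p = 0.000167). Rrm1, the large subunit of ribonucleotide reductase, which takes electrons from thioredoxin and glutaredoxin, rose to 129.5 ± 5.80 FPKM in knockout libraries, against 92.8 ± 0.351 FPKM in GFP-Rgnef libraries (SD, n = 3 each; limma adjusted p = 0.00295). Rrm1 lies on chromosome 7, whose median difference was 0.24, and after chromosome centring its difference of 0.48 became 0.22 and was not called (limma adjusted p = 0.0687). With any 1 library left out, Gsr was the 1 gene of the list still called lower, since Msrb1 and Prdx6, named after their values were seen, were lost each time.

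The substrates of sulfiredoxin, singled out for that role after their values were seen, were not called. Prdx1, the most abundant cytosolic peroxiredoxin here, had 525.8, 608.8 and 701.2 FPKM in knockout libraries 1 to 3, against 709.4, 725.0 and 1018 FPKM in GFP-Rgnef libraries 1 to 3. The groups lay side by side without overlap, and the difference was -0.41 (SE 0.153, 95% interval -0.76 to -0.06, limma adjusted p = 0.123). Prdx2, Prdx3 and Prdx4 overlapped between the groups, with differences of -0.16, -0.11 and 0.12 and limma adjusted p of 0.237, 0.617 and 0.47.

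NRF2 and its other targets were set beside the members as lists. Of 22 other NRF2 targets 11 were called lower and 0 higher (limma), with a median difference of -0.46, and 12 had all knockout libraries below all GFP-Rgnef libraries. Over all tested genes 5.34% were called lower, 8.04% higher, and 16.7% were lower without overlap. The same shares are the background for the regulators. Of the differences of the targets 20 were negative and 2 positive, Hmox1 (0.26) and Ftl1 (0.03), neither called. The targets with the smallest p were Cbr3, a carbonyl reductase (-2.12), G6pdx of the pentose phosphate pathway (-0.47) and Abcc1, an exporter of glutathione conjugates (-0.49), with limma adjusted p from 0.000886 to 0.00344. Exons of G6pdx overlap Ikbkg on the opposite strand over 13.6% of their length. The number of targets called lower was 6 without knockout 2 and 7 without GFP-Rgnef 2, and 15 with only the libraries numbered 1 and 2. Over all tested genes 213, 198 and 1059 were called lower in those runs, against 614 with all libraries. Within each group library 3 stood above libraries 1 and 2 for these targets as well, by a median of 0.19 in knockout and 0.36 in GFP-Rgnef. Of 8 tested regulators 2 were called lower and 0 higher: Nfe2l2, which encodes NRF2, with 87.9 ± 4.86 FPKM in knockout and 112.3 ± 2.45 FPKM in GFP-Rgnef libraries, and the small MAF gene Maff with 29.9 ± 2.47 FPKM in knockout and 38.6 ± 1.25 FPKM in GFP-Rgnef libraries (SD, n = 3 each; limma adjusted p of 0.0108 and 0.0206). Nfe2l2 lost its call without GFP-Rgnef 2 (limma adjusted p = 0.0533), and Maff without knockout 1, knockout 2, GFP-Rgnef 1 or GFP-Rgnef 2.

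**Figure D4:**
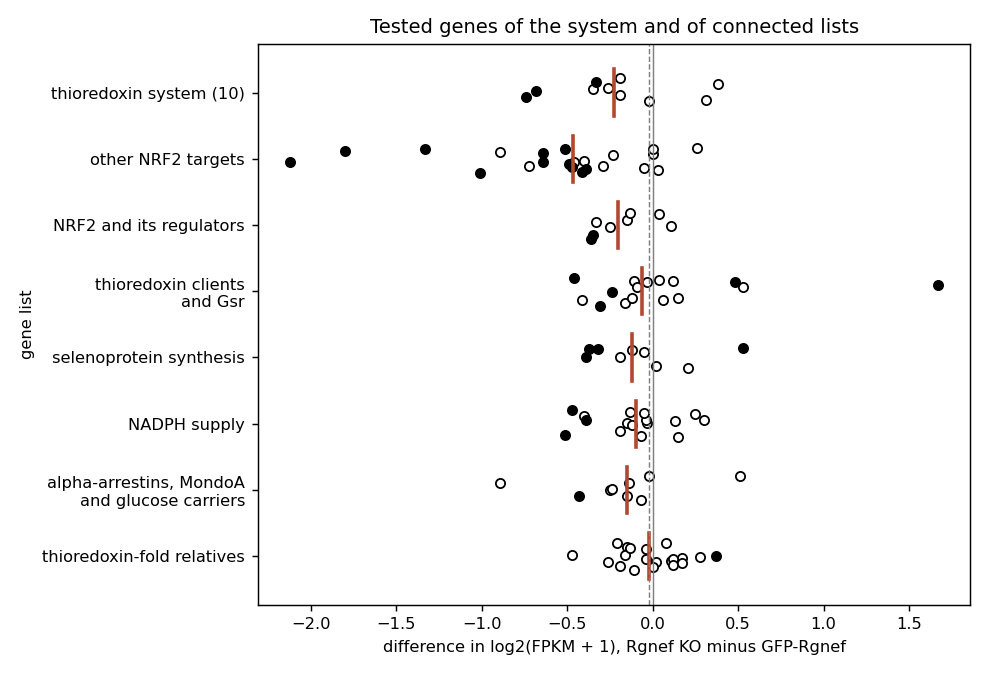
Differences in log2(FPKM + 1), knockout minus GFP-Rgnef, of every tested gene (circles) in the thioredoxin system and 7 connected lists, filled where limma's adjusted p was below 0.05, with a red bar at each list's median and a dashed line at the median of all tested genes. The medians are -0.22 for the thioredoxin system and -0.46 for the other NRF2 targets, and -0.02 for the thioredoxin-fold relatives.

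Thioredoxin reductases need the machinery that inserts selenocysteine. Of its 9 listed genes 3 were called lower and 1 higher (limma), against 5.34% and 8.04% of all tested genes, with a median of -0.12. Secisbp2, which binds the selenocysteine insertion element, had 19.2 ± 0.404 FPKM in knockout and 25.5 ± 2.62 FPKM in GFP-Rgnef libraries (SD, n = 3 each; limma adjusted p = 0.0243). Trnau1ap, a partner of the selenocysteine tRNA, fell by 0.32 and Lrp8, a receptor for the selenium carrier selenoprotein P, by 0.37 on the log2 scale (limma adjusted p of 0.0274 and 0.0278). Pstk, the kinase that prepares that tRNA, was the one that rose, by 0.53 (limma adjusted p = 0.0336), and was named after its value was seen. Its exons overlap Ikzf5 on the opposite strand over 58.8% of their length, and it lies on chromosome 7. Without knockout 1, knockout 2, GFP-Rgnef 1 or GFP-Rgnef 2 the lower calls of Secisbp2, Trnau1ap and Lrp8 were all lost, and without knockout 3 those of Secisbp2 and Trnau1ap. Pstk was called only without knockout 1 among the runs with 1 library left out, and after chromosome centring 0 of the 4 were called.

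Txnip was set beside the other alpha-arrestins, its glucose-sensing activators and glucose carriers. Of 9 tested genes 1 was called lower and 0 higher (limma), against 5.34% and 8.04% of all tested genes. It was Slc2a1, the glucose carrier whose uptake activity Txnip lowers, with 52.9 ± 2.97 FPKM in knockout and 71.6 ± 1.14 FPKM in GFP-Rgnef libraries (SD, n = 3 each; difference -0.43, limma adjusted p = 0.00551). Mlx, a partner of the activators MondoA and ChREBP, differed by -0.24 (limma adjusted p = 0.0641), and its exons overlap Psmc3ip on the opposite strand over 19.3% of their length. Arrdc4, the alpha-arrestin that shares those activators and was singled out after its values were seen, had 1.42, 0.907 and 1.14 FPKM in knockout libraries 1 to 3, against 0.224, 0.890 and 0.473 FPKM in GFP-Rgnef libraries 1 to 3. All knockout values lay above all GFP-Rgnef values, the closest pair by little, with 7 to 47 reads per library. It was not called (difference 0.51, SE 0.184, limma adjusted p = 0.108), and it lies on chromosome 7.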

How the data were processed

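Messenger RNA captured on poly-T beads was sequenced from 6 libraries, per the labels' protocols. FPKM per gene and library is what the authors deposited, and the submitters' processing notes name CASAVA 1.8, TopHat2 2.0.9, DESeq2 and the build mm10. The annotation, strand setting and quantifying tool are not given in the sources used here. Gene symbols and positions were taken from GENCODE M21 (GRCm38), which matched 34490 of 35275 identifiers. Promoter windows came from RefSeq (GRCm38.p6), with 16 windows for the 10 members.

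Values in log2(FPKM + 1) were tested with limma 3.58.1 (R 4.3.3, trend on) for the 11500 genes whose mean reached 0.5 FPKM. Benjamini-Hochberg adjustment ran over all of these, and a call is an adjusted p below 0.05. Reads were recovered with the annotated exon length where it made all values of a gene whole within 0.02, as for Txn1. Otherwise the fewest reads that did so were taken, so printed reads other than those of Txn1 are minimum numbers. Ratios used an exact permutation test. The limma step was tested on simulated data. The members and lists were chosen with earlier results of these data known. Named were all members, and from each list the called genes of smallest p, at most 3, with the most abundant added where fewer than 2 were called. Alternatives covered the pseudocount, filter, scaling, trend, replicate block, voom on recovered reads, libraries left out and chromosome centring, in which the median deviation of a chromosome's genes was subtracted per library. Python 3.11.15, pandas 2.3.3, scipy 1.17.1 and matplotlib 3.10.9 made tables and plots.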

Additional observations from a re-analysis of the deposited data

How the results depend on the processing

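Srxn1 kept its direction and its call under all 16 alternatives, with differences from -0.75 to -0.57, and the other members except Glrx kept their direction. With each library left out in turn, differences ranged from -0.33 to -0.14 for Txn1, -0.26 to -0.12 for Glrx2, -0.39 to -0.25 for Txnrd1, -0.88 to -0.56 for Txnip, -0.26 to -0.15 for Txn2, -0.45 to -0.27 for Txnrd2 and -0.19 to 0.17 for Glrx, which reversed at 0.02, 0.10 and 0.17. In those runs 1 to 4 members were called lower, and over all genes 198 to 580 lower, 458 to 848 higher and 656 to 1421 in either direction. The call of Txnrd1 was lost at -0.33 without a filter and without trend and at -0.32 after chromosome centring, and that of Txnip at -0.74 without a filter. With the libraries numbered 1 and 2 only, 5 members, 1059 genes lower and 2337 in all were called, with Txn2 at -0.24 and Txnrd2 at -0.40 gained. Without a filter 1 member and 394 genes were lower, and after chromosome centring 494 genes were higher, 388 lower and 882 called. TPM scaling gave 67.2% of calls as higher against 60.1%. With the replicate number as a block, 1517 genes were higher, 1253 lower and 2770 called, and 6 members were lower and 2 higher, as Txn1 (-0.26), Txn2 (-0.19), Txnrd2 (-0.35), Txnrd3 (0.38) and Nxn (0.31) passed. Under the block 17 other NRF2 targets were lower and 1 higher, 4 of their regulators lower, and 3 thioredoxin-fold relatives higher and 1 lower. Same-numbered libraries deviated together for numbers 1 and 3 (r = 0.321 and 0.552 across genes) but not for number 2 (r = -0.02), and knockout 1 correlated best with GFP-Rgnef 2, so the numbers were not taken as pairs, although both libraries numbered 3 deviated alike. The block could not move the log2 ratios of -0.86 for Txnrd1 to Txnrd3 and -0.52 for Txnip to Txn1. Each group has 1 library of each number, so the mean of the pair differences equals the difference of the group means. A mean of at least 5 FPKM gives no value for Txnrd3, the member with the fewest reads (79 to 175).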

Other observations

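Of 27 other genes with a thioredoxin fold 20 were tested, and 1 was called higher and 0 lower in knockout libraries (limma), against 8.04% and 5.34% of all tested genes. Differences went both ways, 10 positive and 10 negative, and 4 genes were higher and 4 lower without overlap between the groups. Glrx3, a cytosolic glutaredoxin that carries iron-sulfur clusters, rose to 87.4 ± 4.85 FPKM in knockout libraries, against 67.2 ± 1.51 FPKM in GFP-Rgnef libraries (SD, n = 3 each; difference 0.37, limma adjusted p = 0.00921). It lies on chromosome 7, and after chromosome centring its difference was 0.12 and not called (limma adjusted p = 0.358). Without GFP-Rgnef 2 its call was lost at a limma adjusted p of 0.0514. P4hb, a protein disulfide isomerase of the endoplasmic reticulum and the most abundant gene of the list, had 580.7 ± 50.1 FPKM in knockout and 581.8 ± 77.3 FPKM in GFP-Rgnef libraries (SD, n = 3 each).

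Of 16 tested enzymes that supply NADPH or its precursors 3 were called lower and 0 higher (limma), with a median of -0.10, against 5.34% and 8.04% of all tested genes called. They were G6pdx and Pgd, the dehydrogenases of the oxidative pentose phosphate pathway, and the malic enzyme gene Me1, all 3 also on the list of NRF2 targets. Pgd had 206.5 ± 11.4 FPKM in knockout and 293.9 ± 22.9 FPKM in GFP-Rgnef libraries, and Me1 had 166.0 ± 6.04 FPKM in knockout and 219.2 ± 27.2 FPKM in GFP-Rgnef libraries (SD, n = 3 each; limma adjusted p of 0.00516 and 0.0277). Me1 lies on chromosome 9, where 234 genes were called higher and 8 lower, and after chromosome centring its difference of -0.39 became -0.68. The call of Me1 was lost without knockout 1, knockout 2 or GFP-Rgnef 2 (limma adjusted p up to 0.0965).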
